A study of Mus musculus with 24 samples.

Results

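Chemokines of the CC and CX3C classes are small secreted proteins, encoded by the Ccl genes and by Cx3cl1, that attract leukocytes. The genes described here were the 8 rows of the deposited expression table with the symbols Ccl2, Ccl5, Ccl7, Ccl8, Ccl11, Ccl19, Ccl20 and Cx3cl1, out of 27179 genes in all. They were followed through 24 bulk RNA-sequencing libraries of cells sorted for PDGFRb, a receptor of perivascular and stromal progenitor cells, from white adipose tissue of C57BL/6 mice. Each of 8 groups held 3 libraries. Gonadal tissue gave the FIP and APC subpopulations of males (M_FIP, M_APC) and females (F_FIP, F_APC). Inguinal tissue gave DPP4_pos and DPP4_neg cells, sorted on the surface peptidase DPP4, of males (M_DPP4_pos, M_DPP4_neg) and females (F_DPP4_pos, F_DPP4_neg). The labels state no treatment or transgene, and the age of the mice, the gates that set FIP apart from APC, and whether the libraries of a group came from separate mice are not stated in the labels. The p-values therefore gauge library-to-library variation, part or all of which may be technical.

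A library held 9152470 to 18221692 reads in genes, and libraries of the same group correlated with r between 0.982 and 0.992 over log2 values. Levels are normalised counts, which are reads divided by 1 size factor per library. The stromal markers fixed for the sorted cells summed to between 269590 and 943180 in every library. Dpp4, the gene of the inguinal gate, stood at 14883, 15348 and 16085 in M_DPP4_pos against 243, 235 and 258 in M_DPP4_neg, and at 17356, 20848 and 18412 in F_DPP4_pos against 4213, 2124 and 1150.2 in F_DPP4_neg. The F_DPP4_neg libraries stood apart in a second way: 8 epithelial markers summed to 4174, 10111 and 5910.5 there, and to between 11.1 and 397 in the other 21 libraries.

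A chemokine is held in shape by disulfide bonds that involve cysteines near its start. In CC chemokines the first 2 cysteines are adjacent, and in CX3C chemokines 3 other residues separate them. CC ligands act through G protein-coupled CCR receptors on leukocytes, while atypical receptors bind the same ligands and remove or store them without the usual G protein signal. Transcription of many of these genes is induced through NF-kB, STAT and AP-1 factors after cytokine or microbial stimulation. In adipose tissue CCL2 is known for drawing monocytes that become macrophages, and CCL11 for drawing eosinophils.

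The stretch of coding sequence around these cysteines is shown for the 6 genes whose levels allowed a test, because it sets Cx3cl1 apart from the others. It is given on the coding strand from the mouse transcripts of GENCODE M21 (GRCm38), with the codons of the first 2 cysteines in capitals.
Ccl2: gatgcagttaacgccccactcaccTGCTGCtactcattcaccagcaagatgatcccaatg
Ccl7: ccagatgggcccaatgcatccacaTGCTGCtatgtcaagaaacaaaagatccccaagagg
Ccl8: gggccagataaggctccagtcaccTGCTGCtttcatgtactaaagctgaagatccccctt
Ccl11: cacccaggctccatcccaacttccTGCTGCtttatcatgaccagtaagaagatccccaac
Ccl5: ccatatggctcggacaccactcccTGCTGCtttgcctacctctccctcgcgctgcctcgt
Cx3cl1: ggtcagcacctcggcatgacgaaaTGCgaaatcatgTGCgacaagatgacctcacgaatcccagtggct
In each of these 6 genes the stretch begins in exon 1, crosses the splice junction and has the cysteine codons in exon 2. The CC genes have adjacent codons, starting at codon 34 in Ccl2, 33 in Ccl7 and Ccl5, and 32 in Ccl8 and Ccl11, whereas Cx3cl1 has cysteines at codons 32 and 36 with 3 codons between. Cx3cl1 is also the longest, with 395 codons against 91 to 148 for the CC genes shown, and encodes a chemokine carried on a membrane-anchored mucin stalk.

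Ccl2, Ccl7, Ccl11 and Ccl8 lie in this order on the plus strand of chromosome 11 (GRCm38): Ccl2 at chr11:82035571-82037453, Ccl7 at chr11:82045712-82047525, Ccl11 at chr11:82057823-82062955 and Ccl8 at chr11:82115185-82116799. The gaps between neighbours are 8.26 kb, 10.3 kb and 52.2 kb, with the further family member Ccl12 inside the last gap. Ccl5 lies 1409 kb beyond Ccl8 on the minus strand (chr11:83525778-83530518). Cx3cl1 is on chromosome 8 (chr8:94772009-94782427, plus strand), Ccl19 on chromosome 4 (chr4:42754525-42756577, minus strand) and Ccl20 on chromosome 1 (chr1:83116766-83119167, plus strand). The coding sequences of the 4 clustered genes are 43.9% to 66.3% identical in pairs, and the longest stretch any pair shares exactly is 23 bases. The gene Gm17268 overlaps Ccl2 on the opposite strand without sharing an exon. The annotation also lists pseudogenes of Ccl19, so how its few reads were shared out is uncertain.

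Ccl2, Ccl7 and Ccl11 made up nearly all of the transcript of these genes. Per kilobase of transcript, the scale on which different genes can be compared, they accounted for 96.8% to 99.9% of the summed level of the 8 genes in each library. Ccl2 averaged 113308 per kb in M_DPP4_pos and 6931 per kb in F_APC. All 8 genes together took 0.804% to 0.875% of a library's reads in M_DPP4_pos and 0.620% to 0.884% in M_DPP4_neg. In the 6 other groups the share lay between 0.179% and 0.383%.

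**Figure D1:**
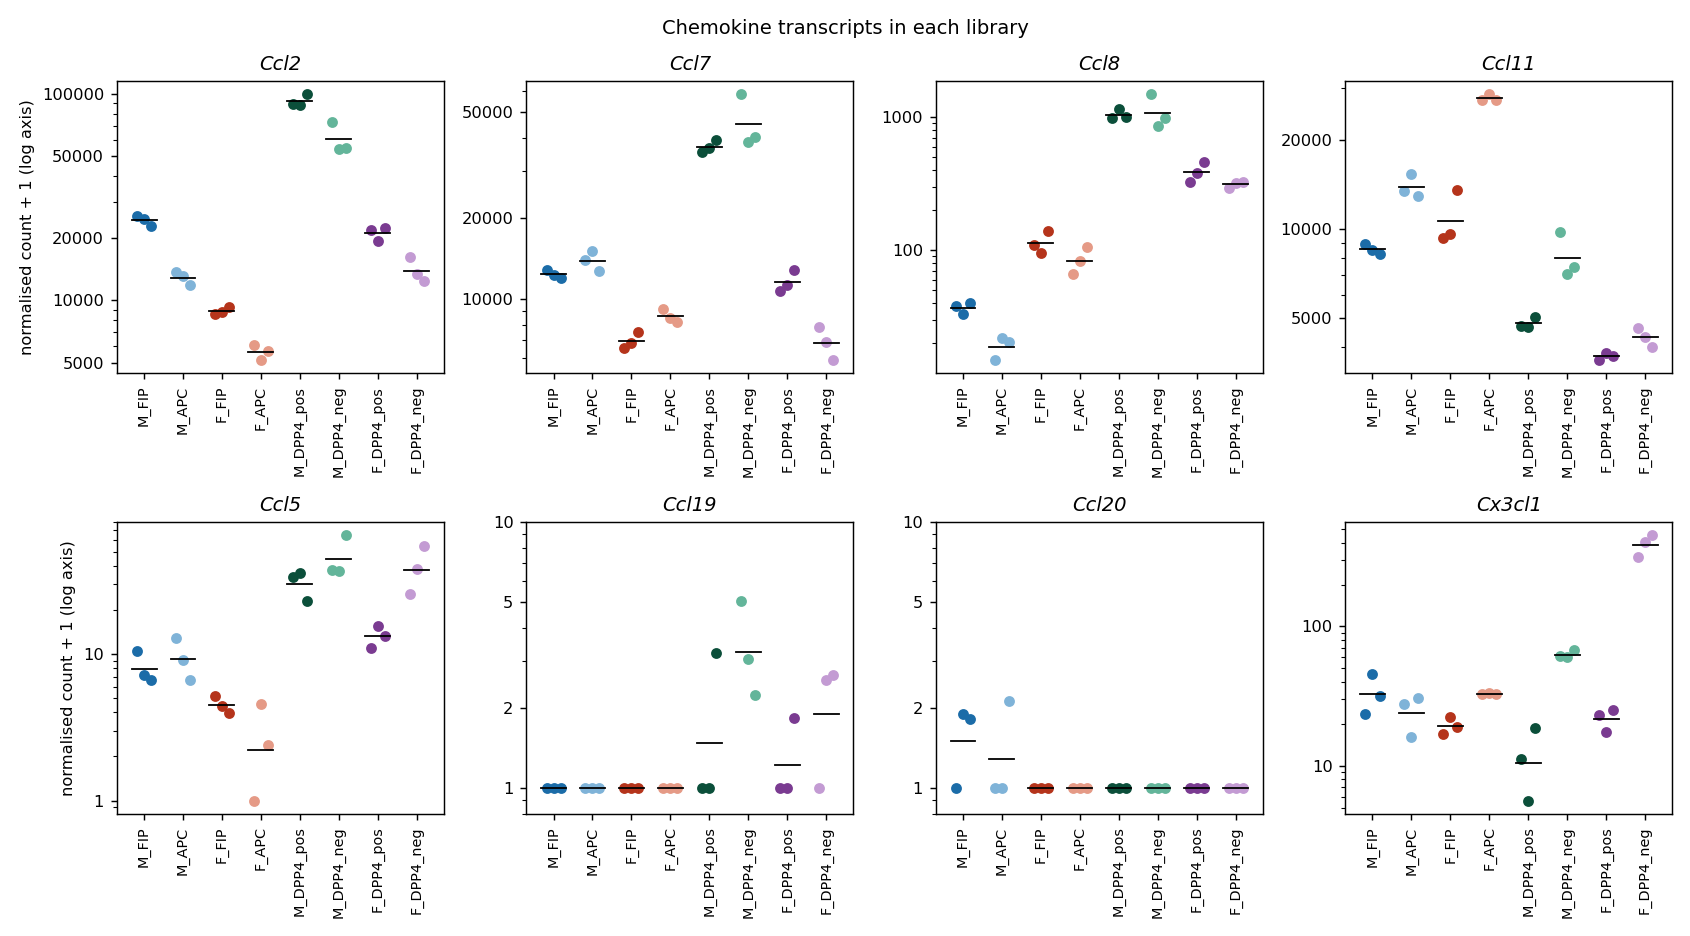
Normalised count plus 1 (log axis) of each chemokine gene in each library, with 1 point per library and a line at the mean of the log values of the 3 libraries of a group. The male inguinal groups are highest for Ccl2, Ccl7 and Ccl8, F_APC is highest for Ccl11, F_DPP4_neg stands apart for Cx3cl1, and Ccl19 and Ccl20 stay at or below 4.06.

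Ccl2, the monocyte attractant and ligand of the receptor CCR2, was highest in male inguinal cells. Its normalised counts were 88969, 88153 and 99238 in M_DPP4_pos and 72728, 54242 and 54769.6 in M_DPP4_neg, against 21822, 19357 and 22345 in F_DPP4_pos and 16185, 13497 and 12425 in F_DPP4_neg. In gonadal cells they were 25602, 24680.5 and 23029.5 in M_FIP and 13728, 13104 and 11882 in M_APC, against 8614, 8777 and 9283 in F_FIP and 6060.0, 5159.7 and 5684 in F_APC. The highest group mean was 16.4 times the lowest, and of the 7 neighbouring pairs in the order of the 8 means only F_DPP4_neg and M_APC overlapped. In F_DPP4_neg the library with the most Ccl2 was also the one with the most Dpp4.

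Ccl7, which also attracts monocytes through CCR2 and acts on further CC receptors, was again highest in male inguinal cells, but here M_DPP4_neg overlapped M_DPP4_pos. Its normalised counts were 35390.4, 36760.5 and 39330.4 in M_DPP4_pos and 58322, 38632 and 40470.0 in M_DPP4_neg, against 10706, 11283 and 12846 in F_DPP4_pos and 7842, 6865 and 5896 in F_DPP4_neg. The gonadal libraries had 12848, 12287 and 11962 in M_FIP and 14002, 15044 and 12651 in M_APC, against 6517, 6789.8 and 7486 in F_FIP and 9146, 8476 and 8141 in F_APC. The span of group means was 6.67-fold, the smallest of the 6 genes with enough counts, and 4 of the 7 neighbouring pairs overlapped, F_FIP and F_DPP4_neg at the bottom among them. Replicate 1 of M_DPP4_neg was the highest of that group for Ccl2, Ccl7, Ccl8 and Ccl11. Over all genes it correlated with replicates 2 and 3 at r = 0.982 and 0.984, against 0.988 between those 2 libraries.

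The ratio of these 2 neighbouring genes differed between groups. Per kb and within a library, Ccl2 over Ccl7 averaged 1.95 ± 0.0437 in M_FIP against 0.916 ± 0.0544 in M_APC, and 1.27 ± 0.0407 in F_FIP against 0.647 ± 0.0444 in F_APC (SD, n = 3 each). In inguinal cells it averaged 2.44 ± 0.0687 in M_DPP4_pos against 1.31 ± 0.0790 in M_DPP4_neg, and 1.80 ± 0.177 in F_DPP4_pos against 2.02 ± 0.0714 in F_DPP4_neg. Ccl7 thus exceeded Ccl2 per kb in every APC library of both sexes and in no library of the other 6 groups. Over the 24 libraries the log2 levels of the pair correlated with r = 0.886, as a description of points that share libraries and groups.

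**Figure D2:**
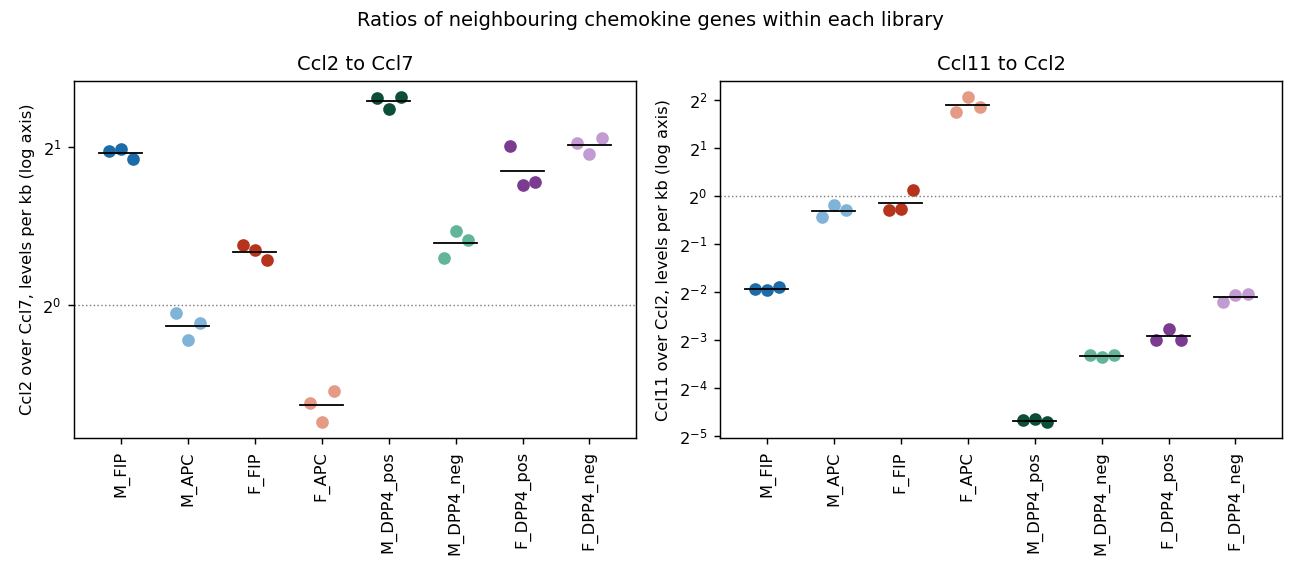
Ratio of Ccl2 to Ccl7 (left) and of Ccl11 to Ccl2 (right), each as levels per kilobase within a library (log axis), with 1 point per library, a line at the mean of the log ratios and a dotted line at 1. Ccl2 over Ccl7 is below 1 only in the 6 APC libraries, and Ccl11 over Ccl2 runs from 0.0383 in M_DPP4_pos to 4.14 in F_APC.

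Ccl8, a further member of the monocyte-attracting group that in mice acts through CCR8, spanned the widest range, 61.4-fold between group means. Inguinal libraries had 979, 1144 and 1007 normalised counts in M_DPP4_pos and 1486, 852 and 983 in M_DPP4_neg, against 323, 378 and 463 in F_DPP4_pos and 295, 318 and 325 in F_DPP4_neg. Gonadal libraries had 36.8, 32.1 and 39 in M_FIP and 14, 20.9 and 19.2 in M_APC, against 109, 93.8 and 139 in F_FIP and 65.3, 82.1 and 104 in F_APC. Males were thus the higher sex in inguinal cells and the lower one in gonadal cells, with no overlap between the sexes in any of the 4 subpopulations. The 250 bases upstream of its RefSeq start (chr11:82114935-82115184, plus strand, GRCm38.p6) are shown for this gene because its range was the widest; the match to TATAAA, which begins 32 bases before the start, is in capitals.
Ccl8 promoter: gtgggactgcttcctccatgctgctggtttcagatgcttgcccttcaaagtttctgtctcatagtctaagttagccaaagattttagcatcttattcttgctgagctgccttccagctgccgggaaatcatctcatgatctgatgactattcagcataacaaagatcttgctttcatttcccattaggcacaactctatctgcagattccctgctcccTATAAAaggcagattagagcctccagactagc
Searched on both strands, 12.4% of the 32851 promoters of this table held TATAAA in the same 250 bases. The letters of the kappa-B motif (held by 45.8% of promoters), the STAT motif TTCNNNGAA (7.02%), the STAT6 motif (5.85%) and the AP-1 motif TGANTCA (6.75%) were not in this window.

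Ccl11, the eosinophil attractant eotaxin and ligand of CCR3, was instead highest in gonadal APC of females. Its normalised counts were 8898, 8514 and 8249 in M_FIP and 13444, 15361 and 12946 in M_APC, against 9311, 9637 and 13552 in F_FIP and 27132, 28454 and 27216 in F_APC. Inguinal libraries had 4691, 4685 and 5063 in M_DPP4_pos and 9736, 7038 and 7414 in M_DPP4_neg, against 3617, 3804 and 3723 in F_DPP4_pos and 4649, 4311 and 4006 in F_DPP4_neg. The F_APC libraries were all above every other library, and group means spanned 7.43-fold. Per kb, Ccl11 over Ccl2 averaged 0.0393 ± 0.000847 in M_DPP4_pos and 3.70 ± 0.40 in F_APC (SD, n = 3 each), so that Ccl11 was the most abundant of the 8 genes per kb in F_APC.

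Ccl5, a T-cell and monocyte attractant made by many T cells, was low throughout. Its normalised counts were 32.8, 34.6 and 22 in M_DPP4_pos and 36.5, 35.7 and 64.1 in M_DPP4_neg, against 10.003, 14.6 and 12.4 in F_DPP4_pos and 24.6, 37.1 and 53.7 in F_DPP4_neg. In gonadal cells they were 9.45, 6.24 and 5.69 in M_FIP and 11.8, 8.11 and 5.66 in M_APC, against 4.15, 3.41 and 2.99 in F_FIP and 0, 3.57 and 1.38 in F_APC, where the 3 F_APC libraries held 0, 3 and 1 reads. Every inguinal male library exceeded every gonadal one, and DPP4_neg overlapped between the sexes. In F_DPP4_neg the order of the libraries was the reverse of their order for Dpp4, as it was for Ccl8 and Cx3cl1. For Ccl2, Ccl7 and Ccl11 the order was the same as for Dpp4. These orders of 3 libraries were not tested. Lymphocyte markers (9 genes, of which 5 had enough counts for a test) summed to 37.3, 54.2 and 38.5 in M_DPP4_pos and 126, 85.8 and 162 in M_DPP4_neg, against 32, 38 and 37.2 in F_DPP4_pos and 47.7, 41 and 66.9 in F_DPP4_neg. Their sums were 10.4 to 17.8 in M_FIP and 40.8 to 82.3 in M_APC, against 5.12 to 10.9 in F_FIP, where Cd3e, Cd3g and Ms4a1 were at 0, and 14.3 to 27.7 in F_APC. The part of lymphocyte transcripts in the Ccl5 values was not tested.

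Cx3cl1, whose product fractalkine is shed by the proteases ADAM10 and ADAM17 and binds CX3CR1, was set apart by a single group. F_DPP4_neg had 312, 400.1 and 452 normalised counts, and the next group in order, M_DPP4_neg, had 59.9, 59.2 and 66.6. The DPP4_pos libraries held 10.2, 4.61 and 17.6 in M_DPP4_pos and 22, 16.6 and 24 in F_DPP4_pos. Gonadal libraries had 22.7, 44.6 and 30.9 in M_FIP and 26.8, 15.1 and 29.4 in M_APC, against 15.8, 21.3 and 17.9 in F_FIP and 31.7, 32.1 and 31.8 in F_APC. Below M_DPP4_neg, 4 of the 5 neighbouring pairs of groups overlapped. Per kb, Cx3cl1 averaged 117 in F_DPP4_neg, where Ccl8 averaged 612.

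Markers of some other cell types were, like Cx3cl1, lower in F_DPP4_pos than in F_DPP4_neg. The epithelial sums given above were 226 to 397 in F_DPP4_pos against 4174 to 10111 in F_DPP4_neg, and all 8 epithelial markers were called lower in F_DPP4_pos. In the same comparison all 13 macrophage and monocyte markers were called lower (sums of 278 to 338 in F_DPP4_pos against 601 to 1462 in F_DPP4_neg), as were 5 of 9 mesothelial markers (sums of 459 to 683 against 6851 to 16551). Of all tested genes, 27.1% were called lower there. The keratins Krt8, Krt19 and Krt18 made up most of the mesothelial sum in F_DPP4_neg, with means of 4567, 4143 and 2214. Msln, Upk3b, Lrrn4, Upk1b and Bnc1 of that list had means under 5 in both female groups. In males the epithelial sums were 98.1 to 122 in M_DPP4_pos, with Krt14 at 0, against 11.1 to 26.6 in M_DPP4_neg. Cldn3 alone made up most of the M_DPP4_pos sum, with a mean of 95.3 in M_DPP4_pos against 3.95 in M_DPP4_neg, while every other marker of the list had a mean under 5 in both groups. Male macrophage and monocyte sums were 187 to 289 in M_DPP4_pos against 479 to 793 in M_DPP4_neg. There 7 of 13 markers were called lower, beside 25.3% of all tested genes. Which cells of the F_DPP4_neg sort held Cx3cl1 was not tested, and in bulk libraries fewer cells of a type and less RNA per cell cannot be told apart.

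**Figure D3:**
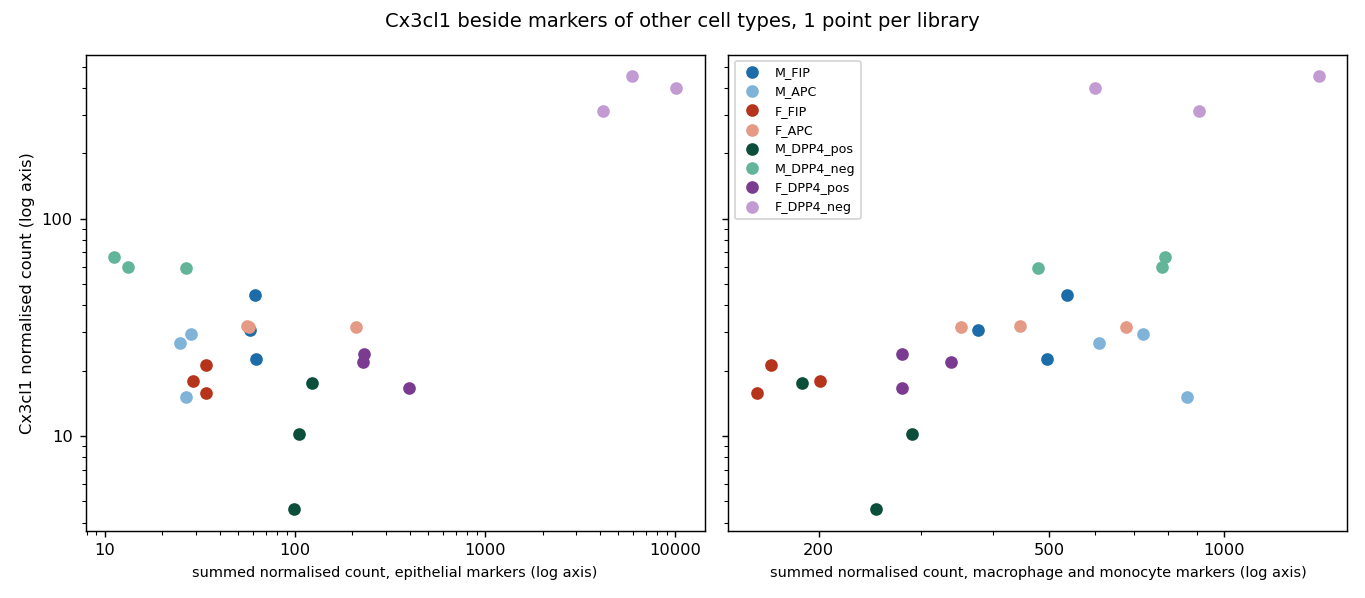
Cx3cl1 normalised count (log axis) against the summed normalised counts of epithelial markers (left) and of macrophage and monocyte markers (right), both on log axes, with 1 point per library. The 3 F_DPP4_neg libraries lie apart at the top, with epithelial sums of 4174 to 10111, while the M_DPP4_neg libraries, next in Cx3cl1, have epithelial sums of 11.1 to 26.6.

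Ccl19, a ligand of the lymphoid homing receptor CCR7, and Ccl20, the ligand of CCR6, were hardly detected and did not reach 10 normalised counts in 3 libraries, the minimum for testing a gene, so they were not tested. Ccl19 had 2 reads over the 3 libraries of M_DPP4_pos, 7 in M_DPP4_neg, 1 in F_DPP4_pos and 4 in F_DPP4_neg, with at most 4.06 normalised counts in a library. It had 0 reads in all 12 gonadal libraries, where a count of 0 allows up to 3 reads a library. Ccl20 had 2 reads over the M_FIP libraries, 1 over the M_APC libraries and 0 in the other 18 libraries.

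By the likeness of log2 levels over the 24 libraries, the 3 nearest genes to Ccl2 were Dlgap4 (r = 0.979), Ppp2r2d (0.975) and Pdlim4 (0.975), and to Ccl7 they were Chic2 (0.981), Abi3bp (0.964) and Txn1 (0.957). Ccl8 was nearest to Cpz (0.983), Apol9a (0.974) and the B-cell attractant Cxcl13 (0.972). Genes near Ccl11 were Ppp2r3a (0.957) and Eef1a2 (0.942), and genes near Cx3cl1 were Tead2 (0.921) and Cap2 (0.919). Ccl5 was nearest to Asb6 (0.931), Hmga2-ps1 (0.929) and Rnf24 (0.929). These values describe points that share the same 8 groups. Among the chemokine genes themselves, Ccl11 ran opposite to Ccl2 (r = -0.582), Ccl8 (r = -0.590) and Ccl5 (r = -0.727).

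Each gene was tested with limma over all 24 libraries, and a gene was called where the Benjamini-Hochberg adjusted p over 14517 tested genes was under 0.05. Log2 fold changes are of normalised count plus 1 and carry the standard error (SE) of the fit, with n = 3 libraries in each group. This scale understates the change of low genes such as Ccl5. Where a left-out library or another setting is named, the value in parentheses is the adjusted p it gave, after the log2 fold change where both are given.

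**Figure D4:**
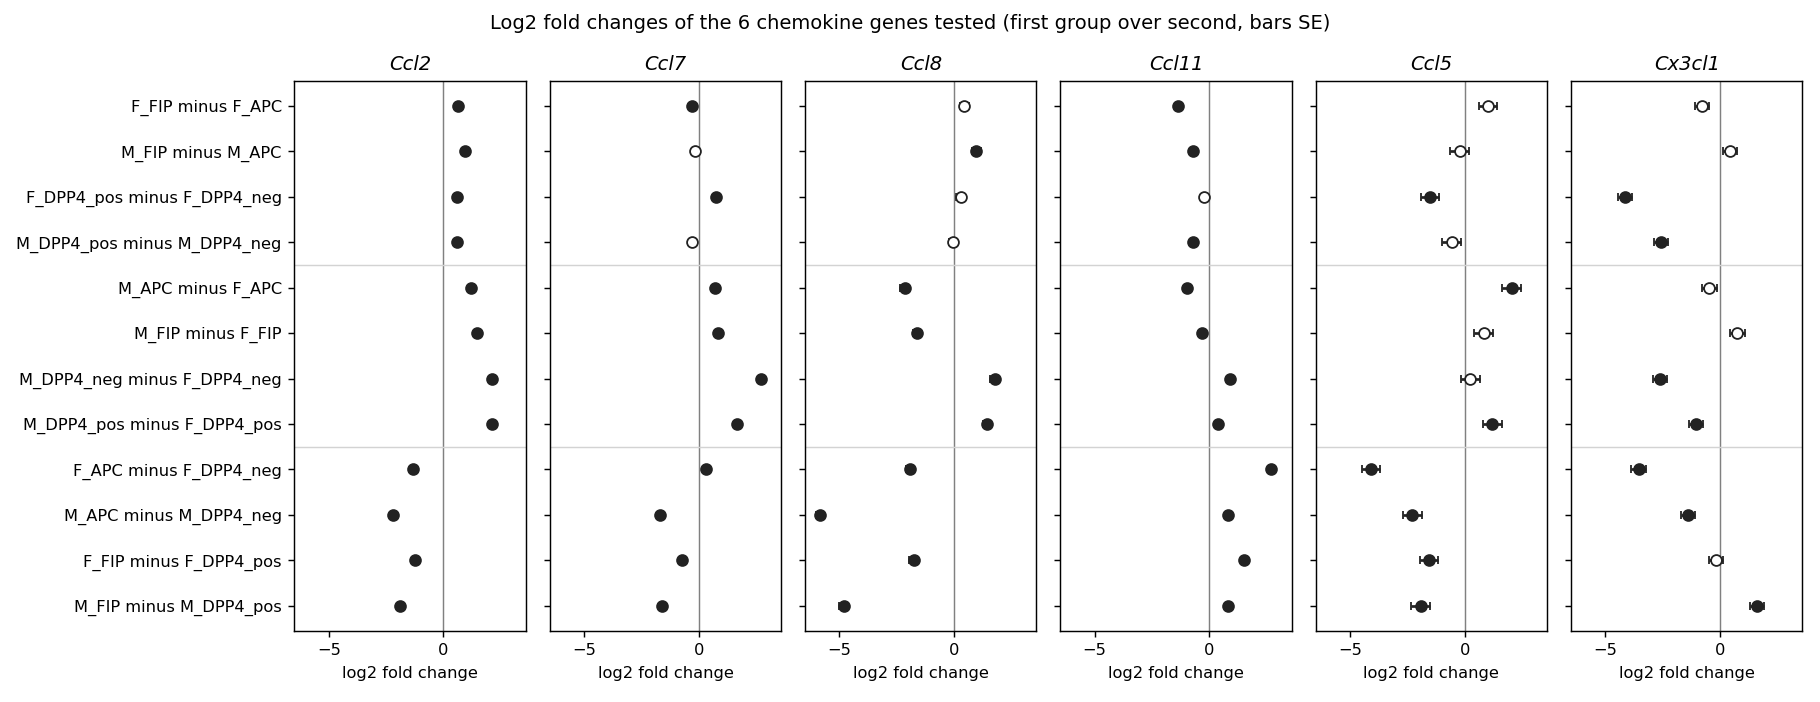
Log2 fold change of each of the 6 tested genes in the 12 comparisons of 2 groups (first group over second), with bars for the standard error, which the points hide where it is small. Filled points were called at an adjusted p under 0.05 and open points were not; Ccl2 is called in all 12, positive in the top 8 and negative in the bottom 4.

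The first question was how the subpopulations of a depot differ. FIP cells had more Ccl2 and less Ccl11 than APC in both sexes. Of the 6 genes, 3 were called in F_FIP against F_APC, where 39.4% of all tested genes were called, and 3 in M_FIP against M_APC, against 36.9% of all tested genes. Ccl2 rose by 0.66 ± 0.11 SE (adjusted p = 2.45e-05) in F_FIP and by 0.92 ± 0.11 SE (adjusted p = 1.75e-07) in M_FIP. Ccl11 had a log2 fold change of -1.37 ± 0.11 SE (adjusted p = 4.16e-10) in F_FIP and -0.70 ± 0.11 SE (adjusted p = 2.06e-05) in M_FIP, and this difference was smaller in males (difference between the sexes 0.67 ± 0.16 SE, adjusted p = 0.00687). It was the only one of the 6 genes called in that test of the sexes, in which 10.8% of all tested genes were called. With quantile normalization this difference was not called (0.44, 0.0615). In the same test Cx3cl1 was called with a pseudocount of 10 (0.0435) and with DESeq2 (0.0269), and Ccl5 without F_APC replicate 2 (0.0438).

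Markers of other cell types differed in the same comparisons. Adipocyte marker sums were 596 to 655 in M_FIP against 1467 to 1973 in M_APC, and 189 to 257 in F_FIP against 1547 to 1782 in F_APC, with 6 and 7 of 7 markers called lower. Mural marker sums were 2033 to 2272 in M_FIP against 3524 to 4236 in M_APC, and 959.5 to 991 in F_FIP against 2454 to 2943 in F_APC, with 5 and 8 of 9 called lower. The share of all tested genes called lower was 18.01% in M_FIP against M_APC and 18.1% in F_FIP against F_APC. The part of the adipocyte and mural markers in the chemokine differences was not tested.

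Ccl8 rose in M_FIP over M_APC by 0.97 ± 0.19 SE (adjusted p = 1.85e-04), both at low levels. In F_FIP over F_APC its log2 fold change of 0.45 ± 0.19 SE was not called (adjusted p = 0.0623), although it was without F_FIP replicate 2 (0.0336) or F_APC replicate 3 (0.0207) and with quantile normalization (0.037). Ccl7 fell slightly in F_FIP (-0.31 ± 0.12 SE, adjusted p = 0.0428). That call was lost without F_FIP replicate 1 (0.142) or 2 (0.104), without F_APC replicate 1 (0.136), 2 (0.0779) or 3 (0.0519), without the filter on low values (0.0787) and without a mean-variance trend (0.0696). In M_FIP the log2 fold change of Ccl7 was -0.17 ± 0.12 SE (adjusted p = 0.305). Macrophage and monocyte markers were lower in F_FIP as well, with sums of 156 to 201.0 in F_FIP against 352 to 679 in F_APC. Of these markers 12 of 13 were called lower, beside 18.1% of all tested genes. Cx3cl1 lay just outside the threshold in F_FIP (-0.77 ± 0.31 SE, adjusted p = 0.0509) and was called there in 8 other settings, edgeR on whole reads (0.0363) and the replicate block (0.0451) among them. Ccl5 had a log2 fold change of 1.02 ± 0.41 SE in F_FIP (adjusted p = 0.0524), called without F_APC replicate 2 (0.00413), with a pseudocount of 0.5 (1.35, 0.0335) and with quantile normalization (1.17, 0.023), and of -0.21 ± 0.41 SE in M_FIP.

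DPP4_pos cells had more Ccl2 and less Cx3cl1 than DPP4_neg cells in both sexes. Of the 6 genes, 4 were called in F_DPP4_pos against F_DPP4_neg, where 49.7% of all tested genes were called, and 3 in M_DPP4_pos against M_DPP4_neg, against 50.5%. Ccl2 rose by 0.60 ± 0.11 SE (adjusted p = 5.62e-05) in F_DPP4_pos and by 0.62 ± 0.11 SE (adjusted p = 3.75e-05) in M_DPP4_pos. With quantile normalization these were 0.26 (adjusted p = 0.0719, no longer called) and 0.39. Cx3cl1 had the largest fold of the 6 genes in both comparisons, -4.15 ± 0.31 SE (adjusted p = 5.12e-11) in F_DPP4_pos and -2.58 ± 0.31 SE (adjusted p = 1.36e-07) in M_DPP4_pos.

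The sexes differed in how DPP4_pos related to DPP4_neg for Ccl7, Ccl11 and Cx3cl1, the 3 of 6 genes called in that test (29% of all tested genes). Ccl7 rose in F_DPP4_pos (0.76 ± 0.12 SE, adjusted p = 8.50e-06; 0.46 with quantile normalization), while its log2 fold change in M_DPP4_pos was -0.28 ± 0.12 SE (adjusted p = 0.0571), which was called without M_DPP4_neg replicate 2 (0.0141) or 3 (0.0311) and in 5 other settings. The difference, males minus females, was -1.04 ± 0.17 SE (adjusted p = 4.45e-05). Ccl11 fell in M_DPP4_pos (-0.73 ± 0.11 SE, adjusted p = 6.66e-06) and had -0.22 ± 0.11 SE in F_DPP4_pos (adjusted p = 0.119). That difference between the sexes, -0.51 ± 0.16 SE (adjusted p = 0.0175), was not called without M_DPP4_neg replicate 1 (0.0567), with quantile normalization (0.0804) or with total-read scaling (0.0757). Both scalings called the fall in F_DPP4_pos (-0.45, 0.0013, and -0.37, 0.0071). For Cx3cl1 it was 1.58 ± 0.44 SE (adjusted p = 0.00829), the fall being smaller in males, and for Ccl2 it was 0.02 ± 0.15 SE (adjusted p = 0.951). Ccl5 fell in F_DPP4_pos (-1.51 ± 0.41 SE, adjusted p = 0.00361; -0.99 with quantile normalization) and had -0.57 ± 0.41 SE in M_DPP4_pos (adjusted p = 0.265), and Ccl8 was not called in either sex (0.30 ± 0.19 SE in females and -0.05 ± 0.19 SE in males).

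The next question was how the sexes differ within a subpopulation. Males had more Ccl2 and Ccl7 than females in all 4 subpopulations. Of the 6 genes, 4 were called in M_FIP against F_FIP, 5 in M_APC against F_APC, 6 in M_DPP4_pos against F_DPP4_pos and 5 in M_DPP4_neg against F_DPP4_neg. Of all tested genes, 37.2%, 44.4%, 52.6% and 57.4% were called in these comparisons in the same order. Ccl2 rose in males by 1.46 ± 0.11 SE in FIP, 1.20 ± 0.11 SE in APC, 2.12 ± 0.11 SE in DPP4_pos and 2.10 ± 0.11 SE in DPP4_neg cells, the adjusted p lying between 4.18e-14 and 2.13e-09. Ccl7 rose by 0.84 ± 0.12 SE, 0.69 ± 0.12 SE, 1.68 ± 0.12 SE and 2.72 ± 0.12 SE in that order of subpopulations, with adjusted p between 1.83e-15 and 3.96e-05.

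Ccl8 changed in opposite directions in the 2 depots. It fell in males in FIP (-1.62 ± 0.19 SE, adjusted p = 1.85e-07) and APC (-2.15 ± 0.19 SE, adjusted p = 1.09e-09) and rose in males in DPP4_pos (1.44 ± 0.19 SE, adjusted p = 6.27e-07) and DPP4_neg cells (1.78 ± 0.19 SE, adjusted p = 1.58e-08). Ccl11 did likewise with smaller folds: it fell in M_APC (-0.99 ± 0.11 SE, adjusted p = 9.80e-08) and M_FIP (-0.32 ± 0.11 SE, adjusted p = 0.0285), and rose in M_DPP4_neg (0.89 ± 0.11 SE, adjusted p = 3.48e-07; 0.59 with quantile normalization) and M_DPP4_pos (0.37 ± 0.11 SE, adjusted p = 0.00775). The M_FIP call was lost without F_FIP replicate 3 (-0.15, adjusted p = 0.294), the F_FIP library highest in Ccl11, and without M_FIP replicate 2 (0.0685) or 3 (0.089). It was also lost with no filter on low values (0.0528), no trend (0.0546), total-read scaling (0.0752) and a fit of the compared groups alone (0.0995). The M_DPP4_pos call was lost with quantile normalization (0.23, adjusted p = 0.0833) and with total-read scaling (0.23, 0.0856).

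Cx3cl1 fell in M_DPP4_neg against F_DPP4_neg (-2.62 ± 0.31 SE, adjusted p = 1.12e-07), where all 8 epithelial markers and 5 of 13 macrophage and monocyte markers were also called lower, beside 30.3% of all tested genes. It fell in M_DPP4_pos against F_DPP4_pos (-1.04 ± 0.31 SE, adjusted p = 0.00702), a call lost without M_DPP4_pos replicate 2 (-0.58, 0.0953) and in a fit of the compared groups alone (0.0654), and with a pseudocount of 10 the log2 fold change was -0.61. In gonadal cells it was not called (0.76 ± 0.31 SE in M_FIP, adjusted p = 0.0583, and -0.46 ± 0.31 SE in M_APC, adjusted p = 0.241). The FIP difference was called without M_FIP replicate 1 (0.99, 0.0283), with a pseudocount of 10 (0.0336), total-read scaling (0.0394), edgeR (0.019) and DESeq2 (0.0136). Ccl5 rose in M_APC (2.05 ± 0.41 SE, adjusted p = 2.28e-04), where F_APC held 4 reads in all, and with a pseudocount of 10 in place of 1 this log2 fold change was 0.67. Ccl5 rose also in M_DPP4_pos (1.20 ± 0.41 SE, adjusted p = 0.0174), a call lost without F_DPP4_pos replicate 1 (0.0633), M_DPP4_pos replicate 1 (0.054) or M_DPP4_pos replicate 2 (0.0615). In M_FIP it had 0.83 ± 0.41 SE (adjusted p = 0.121, and 0.0298 in a fit of the compared groups alone), and in M_DPP4_neg 0.25 ± 0.41 SE (adjusted p = 0.628). Macrophage and monocyte markers were called higher in M_FIP for 11 of 13 genes (18.2% of all tested genes). In M_APC, where Ccl5 was called, only Lyz2 and Laptm5 of that list were called higher (22.4% of all tested genes). The part of these markers in the Ccl5 values was not tested.

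The last question was how gonadal cells differ from the inguinal cells set beside them. Gonadal cells had less Ccl2, Ccl8 and Ccl5 and more Ccl11 in all 4 comparisons. Of the 6 genes, 5 were called in F_FIP against F_DPP4_pos (44.7% of all tested genes), and all 6 in M_FIP against M_DPP4_pos (65%), in M_APC against M_DPP4_neg (66.1%) and in F_APC against F_DPP4_neg (59%). Ccl8 had log2 fold changes of -5.84 ± 0.19 SE (adjusted p = 1.24e-18) in M_APC and -4.82 ± 0.19 SE (adjusted p = 6.51e-17) in M_FIP, against -1.91 ± 0.19 SE in F_APC and -1.76 ± 0.19 SE in F_FIP. Ccl2 had -2.22 ± 0.11 SE in M_APC, -1.91 ± 0.11 SE in M_FIP, -1.31 ± 0.11 SE in F_APC and -1.25 ± 0.11 SE in F_FIP, with adjusted p of 7.57e-10 or less. Ccl11 rose by 0.80 ± 0.11 SE in M_APC, 0.83 ± 0.11 SE in M_FIP, 2.68 ± 0.11 SE in F_APC and 1.52 ± 0.11 SE in F_FIP, with adjusted p of 1.07e-06 or less. With total-read scaling its change in M_APC was 1.22.

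Ccl7 fell in 3 of the 4 depot comparisons, with log2 fold changes of -1.70 ± 0.12 SE in M_APC, -1.59 ± 0.12 SE in M_FIP and -0.74 ± 0.12 SE in F_FIP (-0.49 with quantile normalization), and rose in F_APC (0.33 ± 0.12 SE, adjusted p = 0.0207). That rise was not called without F_APC replicate 1 (0.0789) or F_DPP4_neg replicate 3 (0.135). Cx3cl1 fell in F_APC (-3.55 ± 0.31 SE, adjusted p = 4.92e-10) and M_APC (-1.40 ± 0.31 SE, adjusted p = 3.63e-04), rose in M_FIP (1.63 ± 0.31 SE, adjusted p = 6.47e-05; 1.05 with a pseudocount of 10) and was not called in F_FIP (-0.17 ± 0.31 SE, adjusted p = 0.689). All 8 epithelial markers were called lower in F_APC against F_DPP4_neg, and in M_APC against M_DPP4_neg 2 were higher and 2 lower. Of all tested genes, 32.2% were called lower in the female comparison, and 33.1% higher and 33.0% lower in the male one. Ccl5 fell, with log2 fold changes of -4.09 ± 0.41 SE in F_APC, -2.28 ± 0.41 SE in M_APC, -1.56 ± 0.41 SE in F_FIP and -1.92 ± 0.41 SE in M_FIP. With a pseudocount of 10 these were -2.02, -1.56, -0.72 and -1.21, all still called. Transcripts known to rise during tissue dissociation also differed by depot: 18 immediate early genes summed to 313640 to 524990 in gonadal libraries and 150560 to 232490 in inguinal ones, and mesothelial markers to 2786 to 4510.1 in gonadal libraries and 50.6 to 683 in inguinal ones other than F_DPP4_neg. Wt1 alone made up most of each gonadal mesothelial sum, with group means from 2617 in M_APC to 3722 in F_FIP. In F_DPP4_pos that sum was mostly Krt19 and Krt8 (means of 297 and 141). The part of the immediate early genes and mesothelial markers in the chemokine values was not tested.

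The depot differences depended on sex. All 6 genes were called in the test of the sexes for APC against DPP4_neg, where 42.9% of all tested genes were called, and 5 for FIP against DPP4_pos, against 34.9%. For Ccl8 the male minus female difference was -3.93 ± 0.27 SE (adjusted p = 1.82e-11) for APC against DPP4_neg and -3.06 ± 0.27 SE (adjusted p = 3.59e-09) for FIP against DPP4_pos. For Ccl7 it was -2.03 ± 0.17 SE and -0.84 ± 0.17 SE, for Ccl11 -1.88 ± 0.16 SE and -0.69 ± 0.16 SE, and for Ccl2 -0.91 ± 0.15 SE and -0.66 ± 0.15 SE, in the same order. Ccl2 was not called for FIP against DPP4_pos with quantile normalization (-0.27, adjusted p = 0.246), and for APC against DPP4_neg it was -0.52 with total-read scaling. Cx3cl1 had positive differences (2.15 ± 0.44 SE and 1.80 ± 0.44 SE), the F_DPP4_neg group being among the 4 in the first, and the second was 1.17 with a pseudocount of 10. Ccl5 was called for APC against DPP4_neg (1.80 ± 0.58 SE, adjusted p = 0.0149), but not without F_APC replicate 1 (0.0609), which held no Ccl5 read, nor with a pseudocount of 10 (0.47, 0.209) or quantile normalization (0.0649). For FIP against DPP4_pos it had -0.37 ± 0.58 SE.

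Signalling receptors of these ligands were scarce in the sorted cells. Of 11 genes of signalling CC and CX3C receptors, 5 had enough counts for a test. Summed, the 11 stayed between 19.9 and 142 normalised counts in every library. Ccr7, the receptor of CCL19, had the highest group mean among them, at 15.4 ± 2.63 in M_DPP4_pos and 46 ± 30.3 in M_DPP4_neg, against 9.90 ± 1.11 in F_DPP4_pos and 43.7 ± 20.8 in F_DPP4_neg (SD, n = 3). Ccr7 fell in DPP4_pos cells of both sexes (-1.95 ± 0.53 SE in females and -1.31 ± 0.53 SE in males). Other CC ligands were scarce too: 8 of 14 had enough counts, none was higher in FIP than in APC or in DPP4_pos than in DPP4_neg in either sex, and 6, 1, 5 and 3 of the 8 were lower in F_FIP, M_FIP, F_DPP4_pos and M_DPP4_pos (median log2 fold changes of -1.09, -0.41, -1.19 and -0.58, against medians within 0.04 of 0 over all tested genes). The shares of all tested genes called lower there were 18.1%, 18.01%, 27.1% and 25.3%, in the same order. The 1 of 8 ligands in M_FIP was below that share. Ccl22 had a log2 fold change of -2.75 ± 0.63 SE in F_DPP4_pos and Ccl6 one of -3.05 ± 0.52 SE in M_DPP4_pos. Macrophage and monocyte markers were lower in F_DPP4_pos and M_DPP4_pos as well, as given above.

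Atypical chemokine receptors were mostly higher in FIP and DPP4_pos cells. Their summed level was mostly Ackr3, while group means ran from 128 to 2277 for Ackr1 and from 114 to 1149 for Ackr2. All 5 genes of this list were tested, and 4 were called higher in F_FIP, 5 in M_FIP, 4 in F_DPP4_pos and 4 in M_DPP4_pos against the APC or DPP4_neg cells of the same sex, with median log2 fold changes of 1.88, 2.73, 2.20 and 2.27. Of all tested genes, 21.3%, 18.9%, 22.6% and 25.2% were called higher there. Summed endothelial markers were also higher: 6178 to 7183 in M_FIP against 3906 to 4518 in M_APC, 5617 to 6195 in F_FIP against 3128 to 4422 in F_APC, 4216 to 4519 in M_DPP4_pos against 990.1 to 1167 in M_DPP4_neg, and 6380.0 to 7357 in F_DPP4_pos against 1856 to 2684 in F_DPP4_neg. Tek alone made up most of each FIP and DPP4_pos sum. Its means were 4156 in M_FIP against 1687 in M_APC, and 4876 in F_FIP against 1776 in F_APC. In inguinal cells they were 3955 in M_DPP4_pos against 674 in M_DPP4_neg, and 4920 in F_DPP4_pos against 1240 in F_DPP4_neg. Of the 9 markers in that list, 1 was called higher and 0 lower in M_FIP, 1 and 6 in F_FIP, 2 and 1 in M_DPP4_pos, and 2 and 6 in F_DPP4_pos, and their part in the receptor values was not tested. Ackr3, a scavenger of CXC chemokines, averaged 17893 ± 1108 in M_FIP against 2689 ± 54.1 in M_APC, and 18906 ± 841 in M_DPP4_pos against 3919 ± 91.5 in M_DPP4_neg (SD, n = 3). Ackr2, which scavenges inflammatory CC chemokines, CCL2 among them, averaged 1001 ± 25.2 in M_FIP against 208 ± 45.9 in M_APC and 1067 ± 141 in F_FIP against 114 ± 32.6 in F_APC. It rose by 2.28 ± 0.23 SE in M_FIP, 3.24 ± 0.23 SE in F_FIP, 2.37 ± 0.23 SE in M_DPP4_pos and 2.63 ± 0.23 SE in F_DPP4_pos. Ackr1, which binds CC and CXC chemokines, rose by 3.45 ± 0.12 SE, 2.07 ± 0.12 SE, 1.21 ± 0.12 SE and 1.79 ± 0.12 SE in the same order. Ackr4, the scavenger of CCL19 and CCL21, averaged 408 ± 39.2 in M_FIP and 64.9 ± 12.9 in M_DPP4_pos, and was all but missing from M_DPP4_neg (0.340 ± 0.590). Ccrl2, named after its value was seen, was the exception in inguinal females, lower in F_DPP4_pos (-0.40 ± 0.13 SE).

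**Figure D5:**
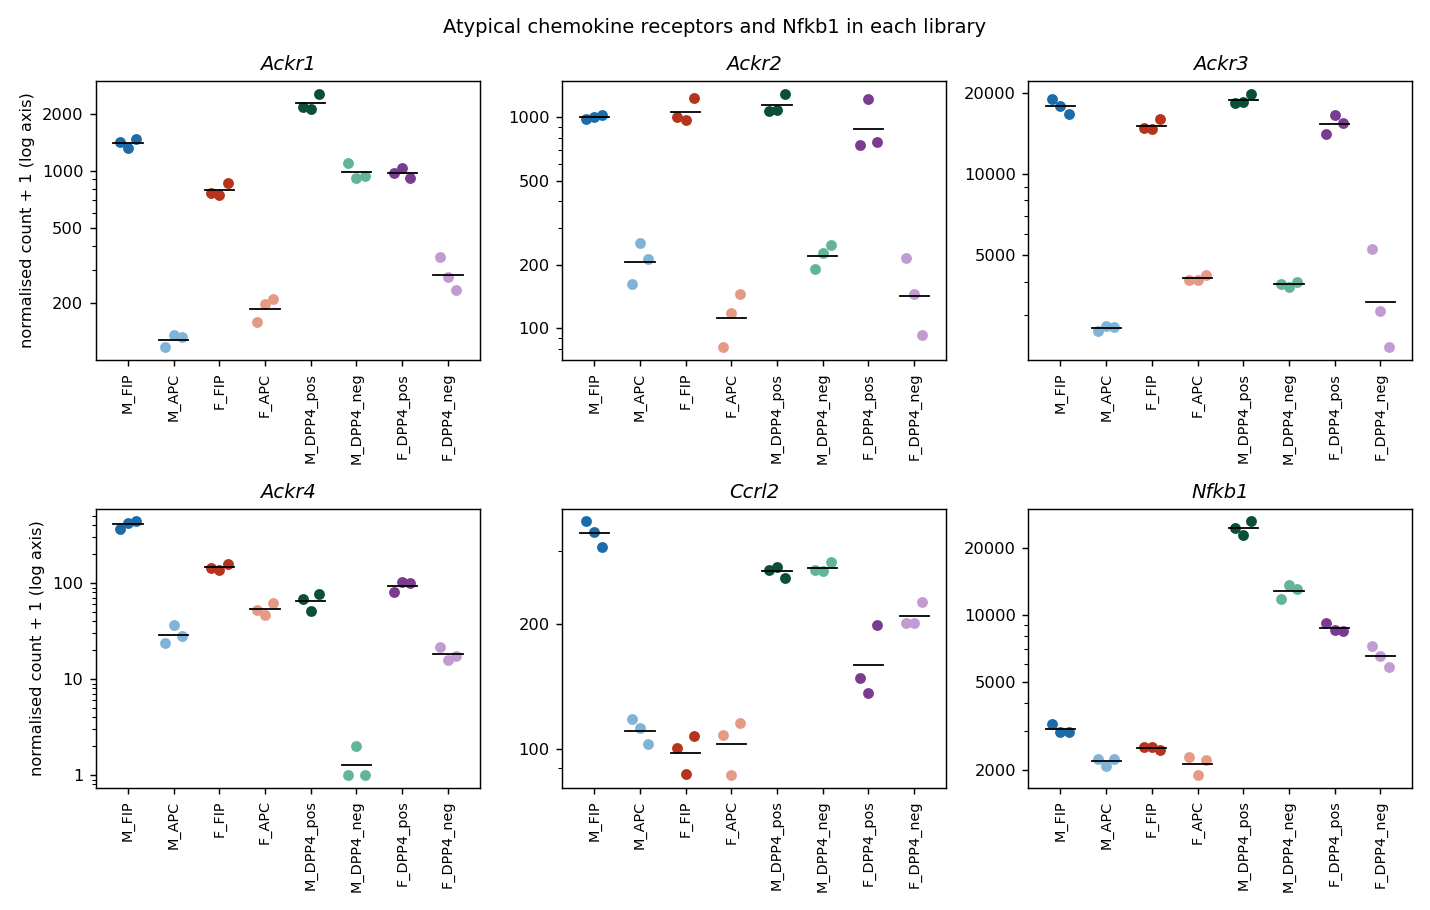
Normalised count plus 1 (log axis) of the 5 atypical chemokine receptor genes and of Nfkb1 in each library, with 1 point per library and a line at the mean of the log values. Ackr2 and Ackr3 separate FIP and DPP4_pos libraries from APC and DPP4_neg libraries in both sexes, while Nfkb1 separates the depots, with means of 24530.0 in M_DPP4_pos and 2133 in F_APC.

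Genes of NF-kB signalling, one of the routes known to induce Ccl2, differed by depot and sex. All 18 genes of this list were tested. In gonadal cells 12 of 18 were called lower and 3 higher in M_APC, 14 and 1 in M_FIP, 11 and 3 in F_APC and 11 and 1 in F_FIP (median log2 fold changes -0.53, -0.79, -0.48 and -0.46, against medians within 0.03 of 0 over all tested genes). Of all tested genes, 33.0%, 32.4%, 32.2% and 22.6% were called lower in these comparisons. In inguinal males 14 of 18 were called higher and 3 lower in M_DPP4_pos than in F_DPP4_pos, and 13 and 3 in M_DPP4_neg than in F_DPP4_neg (medians 0.68 and 0.42), beside 27.1% of all tested genes called higher in each. Nfkb1, which encodes the p50 subunit and its precursor, averaged 3046 ± 140.0 in M_FIP and 2194 ± 97.2 in M_APC, and 24530.0 ± 1669 in M_DPP4_pos and 12737 ± 905 in M_DPP4_neg (SD, n = 3). Its log2 fold change was -3.01 ± 0.08 SE in M_FIP against M_DPP4_pos and 1.49 ± 0.08 SE in M_DPP4_pos against F_DPP4_pos. Nfkbia, the gene of an inhibitor that NF-kB itself induces, was higher in males than in females in all 4 subpopulations, by 1.36 ± 0.09 SE in FIP, 0.87 ± 0.09 SE in APC, 1.38 ± 0.09 SE in DPP4_pos and 1.36 ± 0.09 SE in DPP4_neg cells. Whether NF-kB signalling had a part in the levels of Ccl2 or the other chemokine genes was not tested.

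The remaining lists of the pathway were mixed in direction. Of 16 cytokine and cytokine receptor genes that act upstream of chemokine transcription, 10 were called lower and 5 higher in M_FIP against M_DPP4_pos, 9 and 5 in M_APC against M_DPP4_neg, 9 and 1 in F_FIP against F_DPP4_pos, and 7 and 5 in F_APC against F_DPP4_neg, beside 32.4%, 33.0%, 22.6% and 32.2% of all tested genes called lower. Of 13 JAK-STAT and interferon factors, 9 were called lower and 0 higher in M_FIP than in F_FIP and 6 and 1 in M_APC than in F_APC, whereas in inguinal cells 7 were higher and 4 lower in M_DPP4_pos than in F_DPP4_pos and 5 and 3 in M_DPP4_neg than in F_DPP4_neg. Of all tested genes, 19.0% and 22.1% were called lower in the gonadal pairs and 27.1% were called higher in each inguinal pair. Of 8 proteases that shed or trim chemokines, all 8 were called lower in F_APC against F_DPP4_neg (median -0.80) and 6 were lower and 1 higher in M_APC against M_DPP4_neg (median -0.57), beside 32.2% and 33.0% of all tested genes called lower. The list holds Dpp4 itself, whose product trims several chemokines and whose level the inguinal gate set.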

How the data were processed

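Bulk RNA-seq was available for 24 libraries in 8 groups of 3. Per the submitters' processing notes, Trim Galore 0.4.1, HISAT2 2.0.1, featureCounts 1.4.6, DESeq2 1.6.3 and the builds GRCm38 and mm10 were used; no strand setting is stated there. The deposited values are a signal per gene, reads divided by 1 size factor per library by the authors, and gave back whole reads within 0.01 read for 100% of values. Reads without a gene symbol made up at most 0.0765% of a library.

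Genes reaching 10 in 3 or more libraries (14517 of 27179) were tested on log2(value + 1) with limma 3.58.1 in R 4.3.3, in 1 fit over 8 groups with a mean-variance trend and Benjamini-Hochberg adjustment over all tested genes. This replaces a count test because the values are normalised. On simulated data for F_FIP against F_APC with 14517 genes, 49 of 50 genes changed 2-fold upward, 48 of 50 changed 2-fold downward and 35 of 50 changed 1.5-fold were called, with 15 false calls. The simulation gave all genes a common spread and changed 200 of them, all above a minimum mean level. The rest were equal in every group. Its figures therefore do not carry over to low genes such as Ccl5 or to genes with a larger spread. Alternatives were other pseudocounts, filters and scalings, edgeR 4.0.16 and DESeq2 1.42.0 on the recovered reads, each library left out, and the replicate number as a block. Over the 12 comparisons of 2 groups edgeR called 5466 to 9523 genes on the recovered reads, against 5355 to 9599 with limma. The main fit did not pair libraries by replicate number, which entered only the block alternative. For F_DPP4_pos and F_DPP4_neg the correlations of deviations between libraries of the same number were 0.129, 0.201 and 0.105. The labels do not say what a number marks.

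The genes, pathway lists and marker lists were chosen with earlier results of these data known. The text names the 8 genes, for each tested one the 3 genes most like it (some are not reported here), and of a pathway list at most 4 called genes per comparison by size of change. Sequences came from GENCODE M21 transcripts and RefSeq promoters (GRCm38.p6); promoters of Ccl2, Ccl5, Ccl7 and Ccl11 were not used here. Counting error was not put on single levels; spread is the SD of 3 libraries.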

Additional observations from a re-analysis of the deposited data

Results flagged for a closer look

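Differences between the sexes in the same comparison passed limma's test for 15 combinations of gene and comparison, all given as log2 values, males minus females. For FIP against APC this held for Ccl11 (0.67). For DPP4_pos against DPP4_neg it held for Ccl7 (-1.04), Ccl11 (-0.51) and Cx3cl1 (1.58). For gonadal APC against inguinal DPP4_neg it held for all 6 tested genes: Ccl8 (-3.93), Ccl7 (-2.03), Ccl11 (-1.88), Ccl2 (-0.91), Cx3cl1 (2.15) and Ccl5 (1.80). For gonadal FIP against inguinal DPP4_pos it held for Ccl8 (-3.06), Ccl7 (-0.84), Ccl11 (-0.69), Ccl2 (-0.66) and Cx3cl1 (1.80). Groups of 3 libraries are too small for a check of single outlying libraries.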

How the results depend on the processing

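Of 71 called results of the 6 tested genes, 60 kept their direction and stayed called in all settings run for them, 11 lost the call in at least 1, and none changed direction. The number of genes called was 3 in F_FIP against F_APC, and 5 with quantile normalization. For the difference between the sexes in FIP against APC it was 1, and 2 with a pseudocount of 10, 0 with quantile normalization and 2 with DESeq2, with a range of 1 to 2 when a library was left out. Results that were not called changed sign as follows, and the cause was not tested. Ccl5 in M_FIP against M_APC was 0.033 without M_APC replicate 1 (lowest, without M_APC replicate 3, -0.44), and Ccl8 in M_DPP4_pos against M_DPP4_neg was 0.19 without M_DPP4_neg replicate 1 (lowest, without replicate 2, -0.22). Ccl5 in M_DPP4_neg against F_DPP4_neg was -0.029 with total-read scaling, -0.028 without F_DPP4_neg replicate 1 and -0.021 without M_DPP4_neg replicate 3 (highest, without F_DPP4_neg replicate 3, 0.52). The difference between the sexes in Ccl2 for DPP4_pos against DPP4_neg was -0.026 with TMM factors, -0.031 with edgeR, and from -0.090 without F_DPP4_neg replicate 1 to 0.16 without M_DPP4_neg replicate 1.

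With the replicate number as a block, Cx3cl1 in F_FIP against F_APC was called (adjusted p = 0.0451, against 0.0509 without it); the block changed no other call of these genes. Over 12 comparisons the pairing correlations ran from -0.173 to 0.201, and in 3 of them all 3 libraries correlated best with their own number. Total-read scaling, chosen after seeing the data, put the median of all genes between -0.31 and 0.44 over the comparisons, against -0.04 to 0.05 without it. It shifts all genes of a library alike, so values taken relative to that median are nearly unchanged by construction. Under it the share of calls that were higher was 28.0% against 45.6% in F_DPP4_pos over F_DPP4_neg, 64.2% against 50.4% in M_APC over F_APC, 23.7% against 47.2% in M_DPP4_neg over F_DPP4_neg, 36.8% against 51.4% in M_DPP4_pos over F_DPP4_pos, 73.9% against 50.1% in M_APC over M_DPP4_neg, 71.0% against 49.5% in F_FIP over F_DPP4_pos and 74.0% against 50.2% in M_FIP over M_DPP4_pos. For the differences between the sexes it was 39.1% against 50.6% (FIP and APC), 74.8% against 56.6% (DPP4_pos and DPP4_neg), 82.9% against 52.6% (APC and DPP4_neg) and 69.8% against 45% (FIP and DPP4_pos); with quantile normalization it was 56.6% against 45.4% in F_APC over F_DPP4_neg. Counts of all genes called were 0.783 to 1.48 times those given in the settings that kept every library. With a library left out the count for FIP against APC, males minus females, was 1185 to 1557, against 1566. Depth limits Ccl5, Ccl19 and Ccl20, which had a few reads or none in some libraries.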
